A study of Mus musculus with 8 samples.

Results

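The genes of the myosin-binding proteins and of the M-band, 8 genes of the 22880 counted, were examined in RNA-seq of the soleus, a slow postural calf muscle, from 4 control mice (Dnm2 +/+) and 4 heterozygous Dnm2 +/K562E mice. All mice were males of the C57BL/6 background, aged 2 months, and the labels name no other allele and no treatment in either group. The mutant allele, in which K562E puts a glutamate in place of a lysine of the membrane-cutting GTPase dynamin 2, was made by homologous recombination at the endogenous locus, so every cell type of the muscle carried it. The members were taken by symbol: the myosin-binding protein C genes Mybpc1, Mybpc2 and Mybpc3, their short relative Mybph, the myomesin genes Myom1, Myom2 and Myom3, and Obsl1. All 8 were found among the gene identifiers, and 7 passed the filter on low counts, Mybpc3 being the exception.

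Myosin-binding protein C lies in regular stripes along the thick filament, where it contacts myosin and the neighbouring thin filament and tunes how many myosin heads are free to pull. Its versions are named slow (Mybpc1), fast (Mybpc2) and cardiac (Mybpc3), whereas Mybph encodes a protein of the same family that lacks the N-terminal part. The names slow and fast are isoform names and are not used here as a measure of fibre type. The M-band is the crosslink in the middle of the sarcomere: myomesins, elastic chains of immunoglobulin and fibronectin domains, tie neighbouring thick filaments together and anchor titin there. Myom1 is used in all striated muscle, Myom2 (M-protein) mainly in fast fibres and the heart, and Myom3 in fibres of intermediate character. Obsl1 encodes a cytoskeletal adaptor that binds titin and myomesin at the M-band and also serves outside muscle in the 3M complex.

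The family moved in opposite directions in Dnm2 +/K562E soleus. The mean level of Mybpc2 was 10.3-fold lower, Mybph rose 19.2-fold and Myom2 rose 2.30-fold (ratios of mean normalized CPM, n = 4 mice each), with no overlap between the genotypes for any of these 3 genes. Mybpc1, by far the most abundant member, fell by a smaller amount, and Myom3 and Obsl1 rose by smaller amounts. A gene was called when its adjusted p was below 0.05 and its log2 fold change 0.58 or more in size. By this rule 2 of the 7 tested members were called higher (Mybph and Myom2) and 1 lower (Mybpc2), whereas 20.7% of all 14001 tested genes were called. With the adjusted p alone, 7 of 7 members passed, 4 higher and 3 lower, beside 43.8% of all genes. The genotypes did not overlap in 6 of the 7 (4 higher, 2 lower), beside 41.2% of all genes (20.6% higher, 20.5% lower). Changes of 2 or more on the log2 scale, in size, were found in Mybpc2 and Mybph, 2 of the 7, and in 1.56% of all genes. The median log2 fold change was 0.35 over the 7 members and 0.01 over all tested genes.

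The windows before the transcription start of the genes with the largest rise (Mybph), the largest fall (Mybpc2) and of a myomesin gene (Myom3) are printed so that the values below can be read beside the DNA next to each gene. They are the 250 bases before the RefSeq start on GRCm38.p6, 5′ to 3′ on the strand of the gene, with capitals for matches to the motifs named below. Myom2 has no entry.
Mybph, chr1:134193198-134193447 (+): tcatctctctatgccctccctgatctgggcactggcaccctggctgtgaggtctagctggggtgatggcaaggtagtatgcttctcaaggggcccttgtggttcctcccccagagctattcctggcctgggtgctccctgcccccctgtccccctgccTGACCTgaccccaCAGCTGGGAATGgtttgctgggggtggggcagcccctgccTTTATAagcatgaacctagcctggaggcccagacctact
Mybpc2, chr7:44524670-44524919 (-): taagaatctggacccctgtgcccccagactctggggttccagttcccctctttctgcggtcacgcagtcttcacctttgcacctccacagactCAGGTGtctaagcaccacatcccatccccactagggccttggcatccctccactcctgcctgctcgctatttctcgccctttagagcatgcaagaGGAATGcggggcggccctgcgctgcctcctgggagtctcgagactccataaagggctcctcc
Myom3, chr4:135759465-135759714 (+): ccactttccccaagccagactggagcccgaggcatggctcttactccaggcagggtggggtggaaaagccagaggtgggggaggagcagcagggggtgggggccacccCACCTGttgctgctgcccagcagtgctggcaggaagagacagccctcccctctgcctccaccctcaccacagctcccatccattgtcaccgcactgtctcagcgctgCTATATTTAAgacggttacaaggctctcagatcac

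On both strands of these windows 7 motifs were searched in the 7 members with an entry: the E-box CANNTG, read by myogenic factors, its form CAGCTG (which lies within the first), the MCAT element CATTCC of TEAD factors, the TATA letters TATAAA, the nuclear receptor element AGGTCA, the MEF2 consensus and the CArG consensus of serum response factor. The Mybph window held CAGCTG from 79 bases before the start, followed directly by CATTCC on the other strand from 73 bases before it, AGGTCA on the other strand from 92 bases and TATAAA on the other strand from 39 bases before it. Of all 32851 windows of this length, 13% held CAGCTG, 12.6% CATTCC, 14% AGGTCA and 12.4% TATAAA. The Mybpc2 window held 1 E-box, from 157 bases before the start, and CATTCC on the other strand from 62 bases. The gene that fell most and the gene that rose most thus both had an E-box and a CATTCC in this window. The Myom3 window had 1 E-box and, from 35 bases before the start, a MEF2 consensus, which 2.92% of all windows held. An E-box was present in 7 of 7 members, beside 66.2% of all windows, and CAGCTG in 4 of 7 (Mybpc1, Mybpc3, Mybph and Obsl1). The letters are a description of the DNA, and binding was not measured.

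Library totals were between 33407430 and 48832814 counts. The TMM factors, which put libraries on a common scale, were 0.915 to 0.959 in controls and 1.04 to 1.1 in Dnm2 +/K562E mice, so scaling moves the genotypes relative to each other. With library size alone the median of all genes was 0.22 in log2, and 2865 genes were called higher and 564 lower, in place of 1806 and 1099. Defining genes of muscle fibres were abundant in every mouse, 8 of 8 tested, with a summed level of 69463 to 76824 normalized CPM in controls and 49072 to 55478 in Dnm2 +/K562E mice. Most of them fell, with a median log2 fold change of -0.52. With the adjusted p alone 6 were lower and 1 higher, beside 43.8% of all tested genes in either direction. By both criteria 3 were called lower and 1 higher, beside 7.85% and 12.9% of all tested genes. Des was the gene called higher (0.72 in log2), and Mb did not pass (-0.14, adjusted p = 0.177, edgeR quasi-likelihood test). All 7 macrophage markers and all 7 fibroblast markers were called higher, the first with a sum of 72.8 to 135.5 against 179.3 to 295.6 and the second with 2436 to 3758 against 5337 to 6982 normalized CPM. Muscle fibres, macrophages and fibroblasts contributed to the same counts, and fewer fibre nuclei and less RNA per fibre cannot be told apart in such samples. The part of these shifts in the results was not tested. Dnm2 itself had 66.3 ± 4.74 normalized CPM in controls against 73.4 ± 2.43 in the mutant mice (SD, 4 per genotype), a log2 fold change of 0.15 that did not pass (adjusted p = 0.0909, edgeR quasi-likelihood test), although the genotypes did not overlap. With library size alone it was 0.36 (adjusted p = 0.00271, same test), below the fold change criterion. Since both alleles were counted together this level checks no label.

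**Figure D1:**
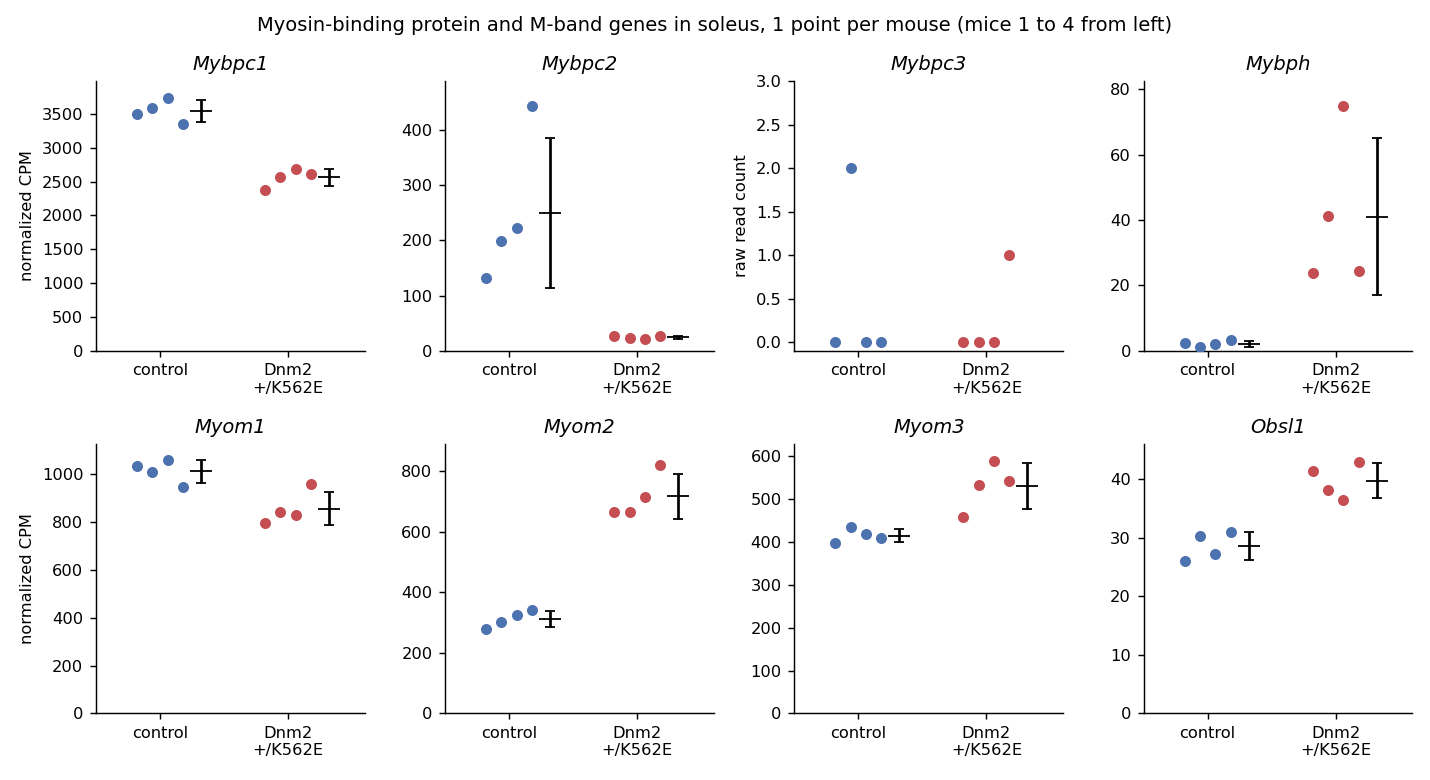
Normalized CPM (library-scaled counts with TMM factors, linear axes from 0) of the 8 members in each soleus, with raw read counts for Mybpc3. Points are mice 1 to 4 from left to right, and the horizontal mark with its bar is the mean ± SD of 4 mice: the genotypes stand apart for 6 members, overlap for Myom1, and Mybpc3 has at most 2 reads.

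The slow isoform Mybpc1 (chromosome 10, 88518279 to 88605152, GRCm38) had 3504, 3585, 3729 and 3353 normalized CPM in controls 1 to 4. In Dnm2 +/K562E mice 1 to 4 it had 2376, 2574, 2686 and 2606, so every mutant mouse lay below every control and the spread within a genotype was narrow. In log2 this was a change of -0.47 (SE 0.07, adjusted p = 2.37e-04, quasi-likelihood test of edgeR, Benjamini-Hochberg adjusted over all tested genes), short of the fold change criterion. With library size alone it was -0.26 (adjusted p = 0.00275, same test).

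Mybpc2, the fast isoform (chromosome 7, 44501699 to 44524656), had 132.3, 199.6, 222.0 and 444.6 normalized CPM in controls 1 to 4. Its levels in Dnm2 +/K562E mice 1 to 4 were 27.3, 22.6, 21.6 and 25.8. The controls thus differed 3.36-fold among themselves and the mutant mice 1.26-fold, and the lowest control was still far above the highest mutant mouse. Its change of -3.36 in log2 (SE 0.32, adjusted p = 1.50e-05, edgeR quasi-likelihood test) was the 10th lowest of the 14001 tested genes. Control 4, the highest, did not decide the call: without it the value was -2.94 (adjusted p = 1.87e-06, same test).

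The heart isoform Mybpc3 (chromosome 2, 91118144 to 91136516) was nearly absent. It had 2 reads in control 2, 1 read in Dnm2 +/K562E mouse 4 and none in the other 6 mice. A count of 0 allows up to 3 reads, here 0.0672 to 0.0894 normalized CPM depending on the library, so both genotypes were at the limit of detection and no fold change is given. Of 7 genes that mark heart muscle, 5 were tested and 1 was called higher, the natriuretic peptide gene Nppb, where 12.9% of all tested genes were called higher. It had no read in any control and 20, 19, 14 and 21 reads in Dnm2 +/K562E mice 1 to 4. Nppb thus passed the filter on low counts through the mutant mice alone, which fixed the direction of its test, and its p is not printed. The heavy chain Myh6 fell from 58.0 ± 2.17 to 48.0 ± 5.35 normalized CPM (SD, n = 4 each, adjusted p = 0.0176, same test) without reaching the fold change criterion. Nppa and Myl7 failed the filter on low counts, and Tnni3 stood at 0.526 ± 0.217 against 0.401 ± 0.0539 (SD, n = 4 each) normalized CPM (adjusted p = 0.414, edgeR quasi-likelihood test).

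Mybph (chromosome 1, 134193448 to 134201232) showed the reverse of Mybpc2. Controls 1 to 4 had 78, 37, 85 and 109 reads, or 2.32, 1.10, 1.90 and 3.21 normalized CPM. Dnm2 +/K562E mice 1 to 4 had 873, 1777, 3141 and 898 reads, or 23.7, 41.3, 74.9 and 24.3 normalized CPM. Every mutant mouse was thus several times above the highest control, while the mutant mice differed 3.16-fold among themselves, with mouse 3 highest. On the log2 scale Mybph changed by 4.27 (SE 0.43, adjusted p = 2.27e-05, edgeR quasi-likelihood test), the 18th highest of all tested genes, and 3.81 without Dnm2 +/K562E mouse 3 (adjusted p = 2.06e-05, same test).

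The exons of Mybph share 1162 bases, 49.9% of their length, with those of the adenosine receptor gene Adora1 on the other strand in GENCODE M21, and the sources used here do not say if reads were counted by strand. Adora1 had 77 to 123 reads in all 8 mice, and its log2 value was 0.07 (adjusted p = 0.834, edgeR quasi-likelihood test), while Mybph went from at most 109 to as many as 3141 reads. Reads of Mybph were therefore not added to Adora1 in proportion. The other members shared at most 4.82% of their 31-base stretches with other genes (Mybpc1), and Myom1 shared 207 exon bases with Myl12a on the other strand.

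**Figure D2:**
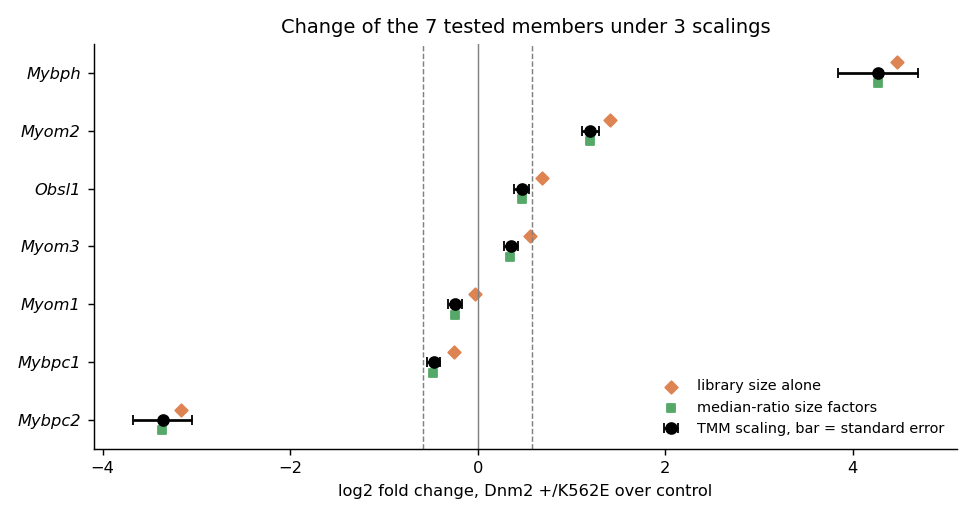
Log2 fold change (Dnm2 +/K562E over control) of the 7 tested members with TMM scaling (black, bar is the standard error), library size alone (diamonds) and median-ratio factors (squares), with dashed lines at the fold change criterion of 0.58. Mybph at 4.27 and Mybpc2 at -3.36 lie far outside the lines under all 3 scalings, and library size alone moves every gene to the right.

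Among the myomesins, Myom1 (chromosome 17, 71002633 to 71126856) moved least. Its levels were 1033, 1009, 1059 and 946.1 normalized CPM in controls 1 to 4 and 797.1, 840.7, 827.4 and 957.2 in Dnm2 +/K562E mice 1 to 4. Mutant mouse 4 lay above control 4, so the genotypes overlapped. The log2 fold change of -0.24 (SE 0.07, adjusted p = 0.0182, edgeR quasi-likelihood test) was not past the fold change criterion, and it did not pass with library size alone (-0.03, adjusted p = 0.672, same test), without control 3 (-0.22, adjusted p = 0.0516, same test), without Dnm2 +/K562E mouse 1 (-0.21, adjusted p = 0.0505, same test) or without Dnm2 +/K562E mouse 3 (-0.23, adjusted p = 0.0507, same test).

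Myom2, the M-protein gene (chromosome 8, 15057653 to 15133541), had 278.9, 300.1, 325.1 and 340.4 normalized CPM in controls 1 to 4. In Dnm2 +/K562E mice 1 to 4 the levels were 664.8, 665.1, 713.0 and 820.3, all of them above the highest control. This rise came to 1.20 in log2 (SE 0.09, adjusted p = 2.84e-06, edgeR quasi-likelihood test), the smallest adjusted p of the members. It stayed between 1.13 and 1.41 under the alternatives tried.

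Myom3 (chromosome 4, 135759715 to 135815564) had 398.5, 434.7, 419.3 and 408.5 normalized CPM in controls 1 to 4 and 458.8, 532.1, 590.0 and 541.6 in Dnm2 +/K562E mice 1 to 4. The genotypes did not overlap, but mutant mouse 1 was close to the controls. Its log2 fold change of 0.35 (SE 0.08, adjusted p = 0.00357, edgeR quasi-likelihood test) did not reach the fold change criterion, nor did the 0.56 obtained with library size alone.

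Obsl1 (chromosome 1, 75479310 to 75506452), the least abundant of the M-band members, had 26.1, 30.3, 27.2 and 31.1 normalized CPM in controls 1 to 4. The mutant mice had 41.4, 38.1, 36.5 and 43.1, without overlap. Its log2 value was 0.47 (SE 0.08, adjusted p = 7.74e-04, edgeR quasi-likelihood test), below the fold change criterion, and 0.68 with library size alone (adjusted p = 1.03e-04, same test), where it was called.

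Levels of different genes were compared per kilobase of annotated exon, a scale on which long, rarely used exons lower a gene. In controls the order of mean normalized CPM per kilobase was Mybpc1 (782.6), Myom1 (96.7), Mybpc2 (69.1), Myom3 (68.8), Myom2 (35.1), Obsl1 (3.39), Mybph (0.916) and Mybpc3. The controls spanned 36.6 to 123.1 for Mybpc2, which overlapped the ranges of Myom1, Myom2 and Myom3. In Dnm2 +/K562E mice Mybpc1 (565.6) still led, followed by Myom3 (87.9), Myom1 (81.8) and Myom2 (80.9), whose ranges overlapped one another. Mybph (17.6, range 10.2 to 32.2) then came above Mybpc2 (6.74, range 5.99 to 7.56) in every mutant mouse, the opposite of the order in every control.

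Within the myosin-binding protein genes, Mybpc1 made up 85.6% to 95.4% of the reads per kilobase in controls and 94.0% to 97.0% in Dnm2 +/K562E mice. The share of Mybpc2 went from 8.05 ± 4.25% to 1.15 ± 0.193%, and that of Mybph from 0.108 ± 0.0441% to 2.93 ± 1.55% (SD, n = 4 each). The summed level of these genes was 852.6 ± 31.5 and 590.0 ± 36.5 normalized CPM per kilobase (SD, n = 4 each). The myomesin genes changed in make-up more evenly: Myom1 gave 48.2 ± 1.81% and then 32.7 ± 1.31%, Myom2 17.5 ± 1.52% and then 32.3 ± 1.42%, and Myom3 34.3 ± 0.956% and then 35.1 ± 2.43% (SD, n = 4 each). In the mutant soleus the 3 myomesin genes thus had nearly equal shares. Their summed level was 200.6 ± 5.31 normalized CPM per kilobase in controls and 250.5 ± 19.8 in Dnm2 +/K562E mice (SD, n = 4 each).

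**Figure D3:**
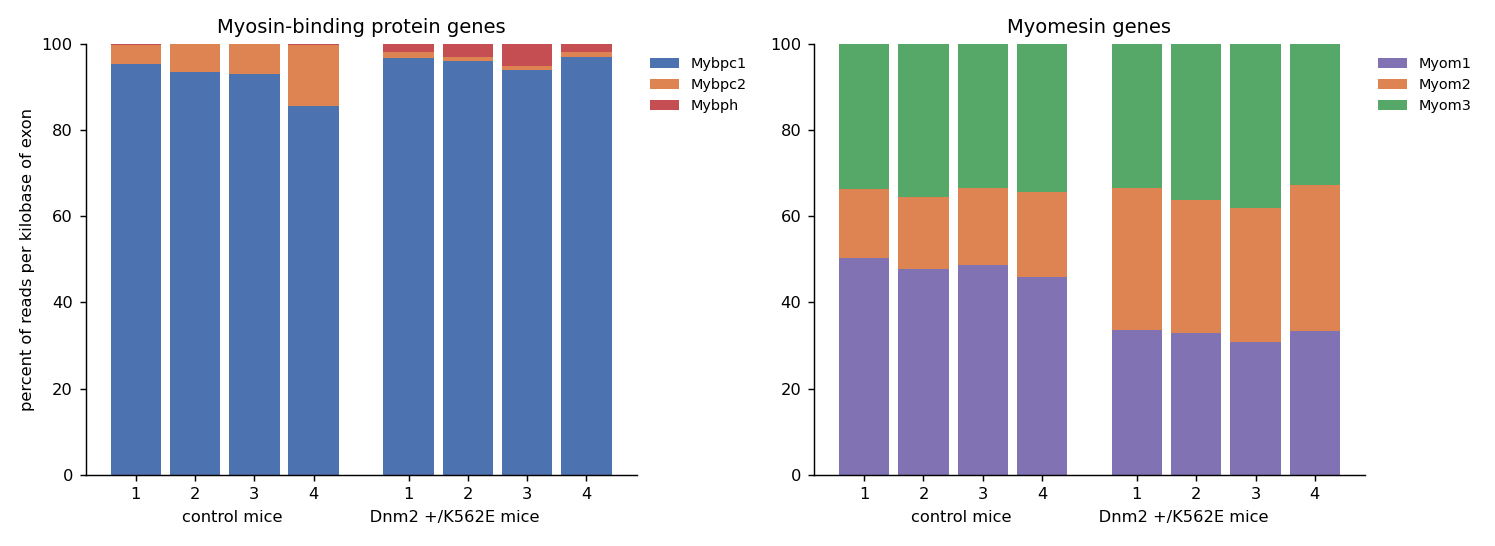
Share of each gene in the reads per kilobase of exon (percent, each bar sums to 100) of the myosin-binding protein genes (left) and of the myomesin genes (right) in each mouse. In the mutant mice the share of Mybpc2 is smaller and those of Mybpc1 and Mybph are larger on average, and Myom2 goes from 16.1% to 19.6% in controls to 30.8% to 33.8% in Dnm2 +/K562E mice. Mybpc3, below 0.002%, is not drawn.

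Ratios between members within a mouse do not depend on how libraries are scaled, and 4 of them were tested by the exact two-sided permutation test, in which 4 against 4 mice cannot give a p below 0.0286. The Mybpc2 to Mybpc1 ratio per length, fast over slow isoform, was 0.0473 to 0.166 in controls and 0.0101 to 0.0144 in Dnm2 +/K562E mice, a 6.74-fold fall of the geometric mean. Mybph to Mybpc1 went from 5.96e-04 to 0.00186 in controls to 0.0181 to 0.0542 in mutant mice, a 25.4-fold rise. For Myom2 to Myom1 the ratio was 0.319 to 0.425 against 0.935 to 1.02, a 2.72-fold rise, and for Myom3 to Myom1 0.669 to 0.748 against 0.980 to 1.24, a 1.51-fold rise. In all 4 ratios the genotypes did not overlap, and each reached that smallest value (exact permutation test, p = 0.0286, and 0.0286 after Benjamini-Hochberg adjustment over the 4). The ratios share Mybpc1 or Myom1 as denominator and reuse the levels above, so they are not separate results. How many other gene pairs would separate the genotypes was not counted. A ratio with Mybpc3 could not be formed because most mice had no read.

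Sarcomeric myosin heavy chains, the partners of these proteins in the thick filament, were set beside the members mouse by mouse. Of 8 genes, 1 was called higher and 2 lower, where 12.9% of all tested genes were called higher and 7.85% lower. Myh4, the heavy chain of the fastest fibres, had 426.4, 371.6, 162.8 and 3134 normalized CPM in controls 1 to 4 and 34.9, 34.0, 45.9 and 50.9 in Dnm2 +/K562E mice 1 to 4. Control 4 was thus highest both in Myh4 and in Mybpc2, whereas control 3 was lowest in Myh4 and second highest in Mybpc2. The log2 fold change of Myh4 was -4.63 (adjusted p = 0.00119, edgeR quasi-likelihood test), and without control 4, an alternative chosen after seeing the data, -2.96 (adjusted p = 2.64e-05, same test). Myh1, another fast heavy chain, did not pass (-0.13, adjusted p = 0.257), and Myh2 (-0.62, adjusted p = 1.36e-04) and the slow Myh7 (-0.52, adjusted p = 4.22e-04, all same test) fell by amounts near that of Mybpc1. Myh1, Myh2 and Myh4 share 30.4% to 42.9% of their 31-base stretches with other genes, so reads may have passed between them.

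Mybph and Myom2 were set beside genes of developing and of nerve-deprived fibres in the same way. Of 7 genes of embryonic, neonatal or regenerating fibres, 5 were called higher and none lower, and of 8 genes that respond to loss of nerve contact 8 were called higher, beside 12.9% of all tested genes. Myog and Ncam1 are in both lists, so these counts are not separate results, and loss of nerve contact was not tested with these counts. The paper examined it by staining of soleus from mice of the same age and genotypes. It reports marginally fewer fully innervated endplates in the mutant mice, without a significant rise in fully denervated fibres. Fibre types kept their random pattern in both genotypes there. Myog, a myogenic transcription factor that binds E-boxes, rose from 6.50 ± 1.46 to 55.8 ± 10.1 normalized CPM (SD, n = 4 each, log2 fold change 3.10, adjusted p = 7.90e-07, edgeR quasi-likelihood test). The embryonic heavy chain Myh3 had 403.4, 302.2, 271.5 and 344.0 normalized CPM in Dnm2 +/K562E mice 1 to 4, against 20.1 to 26.6 in controls. Mutant mouse 3, highest in Mybph, was therefore lowest of the mutant mice in Myh3, and its Myog level of 47.9 lay between the 46.6 and 67.1 of the others. The neonatal heavy chain Myh8 stood at 22.7 ± 2.94 and 24.1 ± 3.51 (SD, n = 4 each, adjusted p = 0.594, same test).

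**Figure D4:**
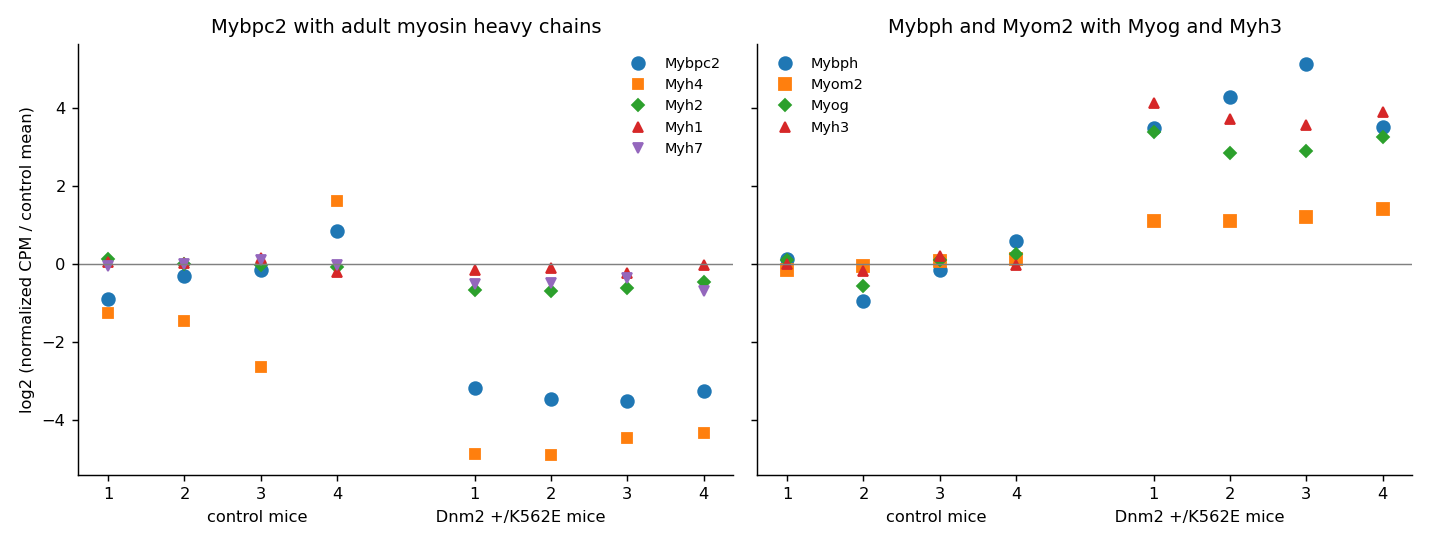
Log2 of normalized CPM over the control mean in each mouse, for Mybpc2 with the adult myosin heavy chains (left) and for Mybph and Myom2 with Myog and Myh3 (right). Mybpc2 and Myh4 are lower in all 4 mutant mice than in any control, and for Myh4 control 4 sets the mean, so that controls 1 to 3 also lie below 0, while Myh1, Myh2 and Myh7 are displaced far less, and Mybph reaches its top in mutant mouse 3, where Myh3 is lowest of the mutant mice.

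Other genes of the M-band and binding partners of the members went mostly the other way from Myom2. Of 20 genes listed, 19 were tested: 1 was called higher and 7 lower, where 12.9% of all tested genes were called higher and 7.85% lower. With the adjusted p alone, 2 were higher and 13 lower, beside 3103 and 3036 of the 14001 genes (43.8% in either direction), and the median log2 fold change was -0.41. With library size alone 2 were called higher and 4 lower. With TMM scaling the median was -0.52 over the 8 fibre genes above, Ckm among them, and -0.40 over the 8 myosin heavy chains. A fall was thus not particular to the M-band partners. The giant scaffold titin, Ttn, went from 5620 ± 458.0 to 4195 ± 373.0 normalized CPM (SD, n = 4 each, log2 fold change -0.42, adjusted p = 0.00254, edgeR quasi-likelihood test). Among the genes called lower were the creatine kinase gene Ckm, whose enzyme docks at the M-band (-1.02), the titin-binding protease gene Capn3 (-0.88), Fhl2 (-0.92), the ubiquitin ligase gene Trim63 (-0.86), the M-band gene Lrrc39 (-0.66) and Speg (-0.59). Speg fell short of the fold change criterion without control 2 (-0.57) or without Dnm2 +/K562E mouse 1 (-0.55). Trim63 overlapped between the genotypes, at 137.4 to 309.4 in controls and 107.5 to 169.5 normalized CPM in Dnm2 +/K562E mice.

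The gene called higher was Cul7, whose cullin forms the 3M complex with Obsl1. It had 17.2 to 19.0 normalized CPM in controls and 27.3 to 30.7 in Dnm2 +/K562E mice (log2 fold change 0.68, adjusted p = 2.20e-05, edgeR quasi-likelihood test). Ccdc8, the third gene of that complex, had 0.22 (adjusted p = 0.248, same test). Thick filament assembly genes were lower or not past the test: the myosin chaperone Unc45b had -0.36 (adjusted p = 0.00175) and the methyltransferase Smyd1 -0.16 (adjusted p = 0.0569, both same test). Mybphl, the remaining member of the myosin-binding protein family, had 1 read in all 8 mice.

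**Figure D5:**
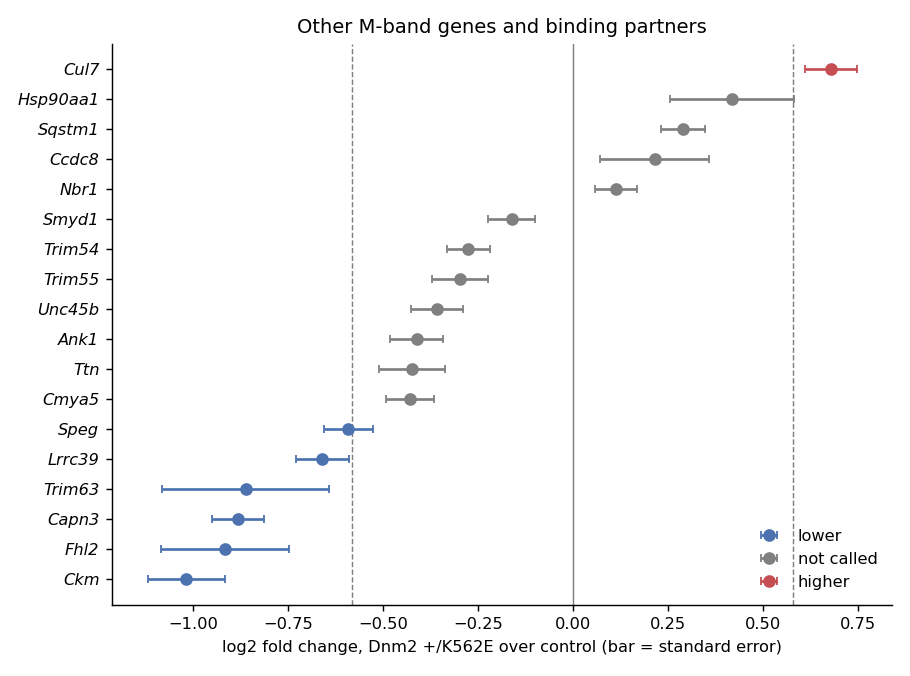
Log2 fold change (Dnm2 +/K562E over control) with its standard error for the tested M-band genes and binding partners reported here, coloured by whether both criteria were passed. Most genes lie left of 0, from Ckm at -1.02, and Cul7 at 0.68 is the gene called higher.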

How the data were processed

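RNA from soleus was sequenced and, per the labels and the study's methods, the authors trimmed reads with Trimmomatic 0.33, aligned them with STAR 2.5.1b to GRCm38.p5 with Ensembl genes and counted them with featureCounts. The deposited values are raw counts per gene and mouse, without normalization. Low-quality alignments were dropped, multi-mapping reads were counted at the primary alignment, and reads over several genes were counted for each. Strand use is not given in the sources used here. For the library, a poly A-selecting kit stands in the methods and a stranded total RNA kit in the labels.

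Groups came from the sample titles. The description of Dnm2 +/K562E mouse 1 reads K452E in place of K562E, and its title and genotype were followed. Mice of a genotype differed by more than sampling noise. Of the 22880 identifiers, 22570 matched GENCODE M21. After filterByExpr in edgeR 4.0.16, with 10 as minimum count and 15 as minimum total, 14001 genes remained and were fitted with TMM factors and the quasi-likelihood test in R 4.3.3. Adjustment followed Benjamini and Hochberg across these genes. Normalized CPM are counts over library size times TMM factor, and standard errors are implied by the F statistic. Ratios were compared by exact permutation with scipy 1.17.1. The limit for a count of 0 covers counting error only.

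Alternatives tried were edgeR's exact test, used in the study, DESeq2 1.42.0, other scalings and filters, replicate blocks and leaving out each mouse. On simulated data of 13884 genes, 100% of 200 genes changed by 1.5 in log2 were recovered, and 10 of the 210 called genes were false. The changed genes were drawn from those above a minimum mean level, and smaller changes were not simulated. Named genes were the members, genes of the written lists where a list is reported, Dnm2 and the genes most like a called member. 1 partner gene is counted in its list but not reported here. Adora1 and Myl12a are named because their exons overlap a member. The members and lists were chosen with earlier results of these data known.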

Additional observations from a re-analysis of the deposited data

Results flagged for a closer look

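Of 24 sets of 4 values checked with Dixon's test (7 members, Dnm2 and 4 ratios, in each genotype), 1 had a mouse far from the others: control 3 had a Dnm2 level of 59.2 normalized CPM, below the other controls. Chance alone gives about 1 in 20 such sets. Without control 3 the log2 fold change of Dnm2 was 0.0941 (adjusted p = 0.246, edgeR quasi-likelihood test). No set of member values or ratios was marked, although control 4 was highest in Mybpc2 and Dnm2 +/K562E mouse 3 in Mybph.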

How the results depend on the processing

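The calls of Mybpc2, Mybph and Myom2 held under all 17 refits, with log2 fold changes from -3.58 to -2.94, from 3.81 to 4.52 and from 1.13 to 1.41. Without the fold change criterion the members called were 4 higher and 3 lower, and the M-band partner genes 2 higher and 13 lower. With library size alone the partner genes were 2 higher and 4 lower, because this scaling raises all values by about 0.22 in log2. When each mouse was left out, 2 members remained called higher and 1 lower in number, with 1 partner gene higher and 5 to 7 lower. The check of the mouse numbers in the titles gave no sign of paired animals, but it cannot exclude pairing. Same-numbered mice had correlations of deviations from -0.213 to 0.00949, and 0 of 8 mice correlated best with their own number. With them as a replicate block, 1637 genes were called higher and 1036 lower, the same numbers of members were called, and Myom1 had an adjusted p of 0.0542, or 0.0555 with the numbers of the descriptions (edgeR quasi-likelihood test). As paired differences by title number the ratios were -2.75 (Mybpc2 to Mybpc1), 4.67 (Mybph to Mybpc1), 1.45 (Myom2 to Myom1) and 0.593 (Myom3 to Myom1) in log2, each at the smallest p that 4 pairs allow (exact sign-flip test, p = 0.125). Leaving out each mouse gave -3.01 to -2.40, 4.35 to 4.93, 1.38 to 1.52 and 0.525 to 0.636, each at the smallest p of 4 against 3 mice (exact permutation test, p = 0.0571). At these depths Mybpc3 was at the limit of detection.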

Other observations

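For each called member, the genes whose profile over the 8 mice lay closest were found by the root mean square difference of log2 CPM (prior count 2), each gene taken relative to its control mean. Closest to Myom2 were Lgals1, the gene of a small galactose-binding lectin (difference 0.0885, 195.8 against 457.5 mean normalized CPM), and Mllt11 (0.0922, 40.9 against 90.4). Closest to Mybpc2 were Chrna9, an acetylcholine receptor subunit gene at 0.586 and 0.0126 normalized CPM (difference 0.31), and Lgi1 at 35.4 and 4.34 (0.416). Closest to Mybph were Lce1f (0.583) and Guca2a (0.647), both with no read in controls and 0.713 and 0.645 normalized CPM in Dnm2 +/K562E mice. Lce1f and Guca2a thus passed the filter on low counts through the mutant mice alone, and Chrna9 had almost no reads in the mutant mice. The sizes of their fold changes are therefore not set against those of Mybph and Mybpc2. At such low levels the prior count shrinks changes, so the closeness of Lce1f, Guca2a and Chrna9 depends on it. The measure is a description over mice that differ by genotype, and carries no test.

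Myom2 and Mybpc2, which are both linked to fast fibres, went in opposite directions between the genotypes. The ratio of Myom2 to Mybpc2 per length, chosen after the values were seen and not tested, lay between 0.312 and 0.860 in controls, whereas the mutant mice had 9.94 to 13.4.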
